A study of Mus musculus with 19 samples.

Results

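Macrophages sorted from the auditory nerve of the mouse cochlea were compared with macrophages sorted from its lateral wall. Each side was a single young library, so 2 of the 19 libraries of the series carry the comparison. They were chosen by their labels, and the difference is described as a log2 ratio of nerve over lateral wall with no test. Of 18639 genes in the table, 14129 had at least 20 normalized reads in the higher of both libraries and were kept.

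The series measured gene expression by RNA sequencing in cells sorted for green fluorescent protein (GFP) from the cochlea, the spiral organ in which sound is sensed. All mice, including those that gave the control cells, were heterozygous CX3CR1 GFP knock-in animals (CX3CR1 GFP/+), so every library comes from mice with 1 copy of Cx3cr1 replaced by GFP. The macrophage libraries hold the GFP-positive sort and the nonmacrophage libraries the GFP-negative sort, so any other cell of the tissue with GFP enters the former. The 4 nerve and lateral wall libraries (1 macrophage and 1 nonmacrophage library of each site) came from mice of 1.5 months, with the tissue of 1 mouse per sample according to the labels. Whole cochleae gave 2 young (1.5 months) and 4 old (12 to 14 months) macrophage libraries, 4 young and 4 old nonmacrophage libraries and 1 unsorted young library. The labels do not say whether the nerve and lateral wall libraries came from the same mouse, and give no sex.

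Tissue macrophages are phagocytes that clear debris, present antigen and release cytokines, and they depend on signalling through the receptor Csf1r. Those of the brain, the microglia, are known for genes such as P2ry12, Tmem119 and Sall1, and those that lie along vessels and in membranes for the mannose receptor Mrc1, Lyve1 and Cd163. In the cochlea they sit among the neurons and glia of the nerve, and along the capillaries of the stria vascularis and among the fibrocytes of the ligament in the lateral wall. The stria pumps potassium into the fluid around the hair cells and is built of marginal cells, pigmented intermediate cells and a dense capillary bed.

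Promoter sequences of 4 genes on which the results turn are shown first, as the 250 bases before the start of transcription (RefSeq, GRCm38.p6), written 5′ to 3′ on the strand of the gene. Slc2a5 and Mrc1 are markers given for the comparison, and capitals mark GAGGAA or its reverse complement TTCCTC, the core of sites bound by PU.1, a transcription factor that macrophages need. Dct and Tyr are pigment genes of strial intermediate cells, and capitals mark TCATGTG or its reverse complement CACATGA, the core of sites bound by Mitf, the regulator of pigment cells.
Slc2a5 (chr4:150119094-150119343, plus strand): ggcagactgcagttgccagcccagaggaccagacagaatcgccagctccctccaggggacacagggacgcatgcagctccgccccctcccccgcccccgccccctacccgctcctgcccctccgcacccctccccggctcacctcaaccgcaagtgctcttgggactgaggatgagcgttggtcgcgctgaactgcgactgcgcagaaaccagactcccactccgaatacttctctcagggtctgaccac
Mrc1 (chr2:14229164-14229413, plus strand): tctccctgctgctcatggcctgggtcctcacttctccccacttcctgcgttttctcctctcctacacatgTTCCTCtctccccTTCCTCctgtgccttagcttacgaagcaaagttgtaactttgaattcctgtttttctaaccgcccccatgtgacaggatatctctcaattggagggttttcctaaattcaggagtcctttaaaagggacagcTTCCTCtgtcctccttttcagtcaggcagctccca
Dct (chr14:118052247-118052496, minus strand): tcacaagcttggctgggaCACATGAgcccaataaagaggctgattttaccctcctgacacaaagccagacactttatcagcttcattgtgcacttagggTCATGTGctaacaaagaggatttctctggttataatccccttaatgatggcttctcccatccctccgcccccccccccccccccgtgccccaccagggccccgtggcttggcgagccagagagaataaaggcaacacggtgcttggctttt
Tyr (chr7:87493513-87493762, minus strand): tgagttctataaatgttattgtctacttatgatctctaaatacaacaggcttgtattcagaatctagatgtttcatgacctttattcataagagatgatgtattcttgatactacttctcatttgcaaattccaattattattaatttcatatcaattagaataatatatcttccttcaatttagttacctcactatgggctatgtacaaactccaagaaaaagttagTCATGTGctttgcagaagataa

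The Mrc1 window held 3 matches to the PU.1 core, at 180, 167 and 35 bases before the start. The Slc2a5 window held none, and neither did those of Siglech and Cx3cr1, which are not printed. Over all 32851 windows 23.3% held the PU.1 core, against 11 of 15 windows (73.3%) of the macrophage core list, 5 of 15 (33.3%) of the microglia-type list and 7 of 17 (41.2%) of the perivascular-type list. The Mitf core stood at 232 and 151 bases before the start of Dct and at 22 bases before that of Tyr. It was in 3.25% of all windows, in 6 of 14 windows (42.9%) of the intermediate cell and melanocyte list and in 0 of 6 of the marginal cell list. It was also in 2 of 15 windows (13.3%) of the macrophage core list. Windows were at hand for 13 of 20 core, 12 of 14 microglia-type, 14 of 18 perivascular-type, 11 of 14 intermediate cell and 4 of 12 marginal cell genes, and a gene can have several. A match describes the letters of the window, and no binding was measured.

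The nerve library held 26.4 M reads in genes (M, mega) and the lateral wall library 23.7 M, within the 20.6 to 71.6 M of all 19 libraries. Values are normalized reads, gene read counts divided by a factor for each library. In them 1 read is worth 1.65 in the nerve library and 1.53 in the lateral wall library, so a count of 0 allows up to 3 reads, or 4.96 and 4.59 normalized reads. Intervals of ratios are exact 95% intervals, and they and these limits cover counting error only. A gene was called where the ratio of value + 1 reached 4-fold, a log2 ratio of 2. Of the 14129 genes, 1750 (12.4%) were called higher in the nerve library and 1606 (11.4%) higher in the lateral wall library, 3356 (23.8%) in all, and the median log2 ratio was 0.09.

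Single libraries of this series can differ that much within 1 group. The 2 young whole-cochlea macrophage libraries, replicates 9 and 15, differed by 4-fold in 5714 of 13128 genes (43.5%), while the 6 pairs of old macrophage libraries differed in 2.19% to 4.35%. Pairs of young whole-cochlea nonmacrophage libraries lay between, at 12.1% to 27.1%. Replicate 9 had 11652 genes with reads, the fewest of all libraries of the series, and replicate 15 had 13532. Over the genes kept here, the median size of the log2 ratio was 0.72 between nerve and lateral wall and 1.33 between replicates 9 and 15, and 35.4% of genes differed more between the sites than between those replicates. Values of replicates 9 and 15 therefore stand beside those of the sites for most macrophage and monocyte genes named. For lists, the text also counts genes past both the young pair and the old pairs. The share of all genes past both is not given, and it can be at most the 35.4% past the young pair.

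**Figure D1:**
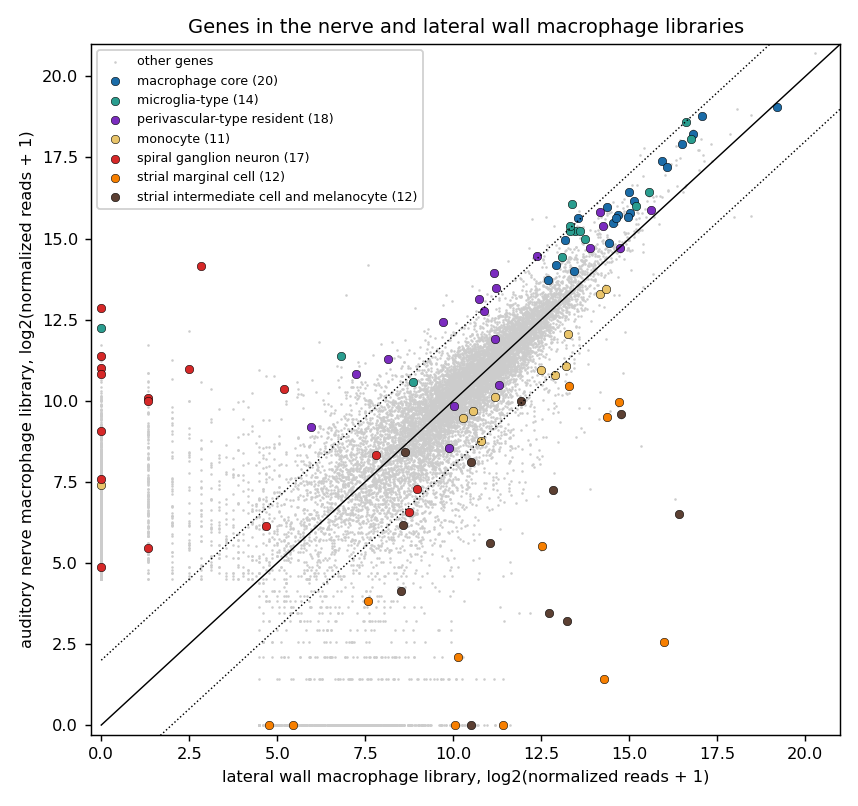
Each point is 1 of the 14129 genes kept, with log2(normalized reads + 1) in the lateral wall macrophage library (x axis) and in the nerve macrophage library (y axis). The solid line marks equal values and the dotted lines 4-fold. Most macrophage list genes lie at high levels and above the solid line, most neuron genes at the left and strial genes at the lower right.

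Both libraries carried the markers of macrophages. All 20 genes of the macrophage core list had reads in both, and limma called all 20 higher in macrophages in the whole-cochlea sort described below. Csf1r, the growth factor receptor on which macrophages depend, was at 454592 normalized reads in the nerve library and 135991 in the lateral wall library, against 309 and 474 in the nonmacrophage libraries of the same sites. C1qa, a chain of the complement protein C1q, was at 89270 and 32758, against 46.1 and 33.6. Replicates 9 and 15 held 42430 and 148962 of Csf1r and 87250 and 106779 of C1qa, so the lateral wall value of Csf1r lay between them and that of C1qa under both. Lyz2, the lysozyme of myeloid cells, was at 544858 and 600480, the 1 core gene below a log2 ratio of 0 (-0.14).

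The core genes were higher in the nerve library, by a median log2 ratio of 1.11 (2.15-fold), with 19 of 20 above 0 and 1 of 20, Cx3cr1, past 4-fold. The list took 5.78% of all normalized reads in the nerve library and 3.78% in the lateral wall library. In these bulk samples, fewer cells of a type and less RNA per cell cannot be told apart. Counts and medians of a list cover the genes kept, and a gene kept through its level in 1 library only had to differ. All measured genes were kept in the core, microglia-type, perivascular-type and monocyte lists, while the oligodendrocyte list kept 11 of 16, the dendritic cell list 9 of 11, the intermediate cell and melanocyte list 12 of 14 and the neutrophil list 10 of 13. Under other scalings the core median ran from 0.52 (quantile normalization) to 1.05 (TMM), and a common total moved the median of all genes from 0.09 to -0.18. The main lists of myeloid cells and pathways are given below both as they stand and relative to the core median of 1.11. With that median subtracted, 1363 genes were called toward the nerve and 2913 toward the lateral wall.

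Cx3cr1, the fractalkine receptor whose locus carries the GFP, lies on chromosome 9 at 119901616 to 120069879 on the minus strand (GENCODE M21, GRCm38). It was at 51002 normalized reads in the nerve library, 11939 in the lateral wall library, and 9201 and 22528 in the young whole-cochlea macrophage replicates 9 and 15. The ratio was 4.27-fold (4.17 to 4.38), and the lateral wall value lay between the replicates while the nerve value lay above both. The old macrophage libraries had a lowest value of 6383, a median of 9311 and a highest of 9927.

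Siglech, a sialic acid-binding lectin of microglia and plasmacytoid dendritic cells (chromosome 7, 55768178 to 55778925, plus strand), was at 38242 in the nerve library, 11223 in the lateral wall library, and 13302 and 11990 in replicates 9 and 15. The nerve library was 3.41-fold higher (3.32 to 3.50), and the lateral wall library lay just under both replicates. Mrc1, the mannose receptor (chromosome 2, 14229392 to 14332057, plus strand), was at 58007, 18275, 7592 and 15205 in the same order. Its ratio was 3.17-fold (3.11 to 3.24), with both site libraries above both replicates.

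Slc2a5 encodes the fructose transporter Glut5, which in the brain marks microglia (chromosome 4, 150119283 to 150144169, plus strand). It was at 4893 normalized reads, or 2962 reads, in the nerve library and had no reads in the lateral wall library, at least 1064-fold higher against the limit of 3 reads. The young whole-cochlea replicates spanned a range of this kind on their own, at 0 in replicate 9 and 1822 in replicate 15. The 4 old macrophage libraries lay closer together, from 357 to 682 with a median of 527, and both site nonmacrophage libraries were at 0.

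**Figure D2:**
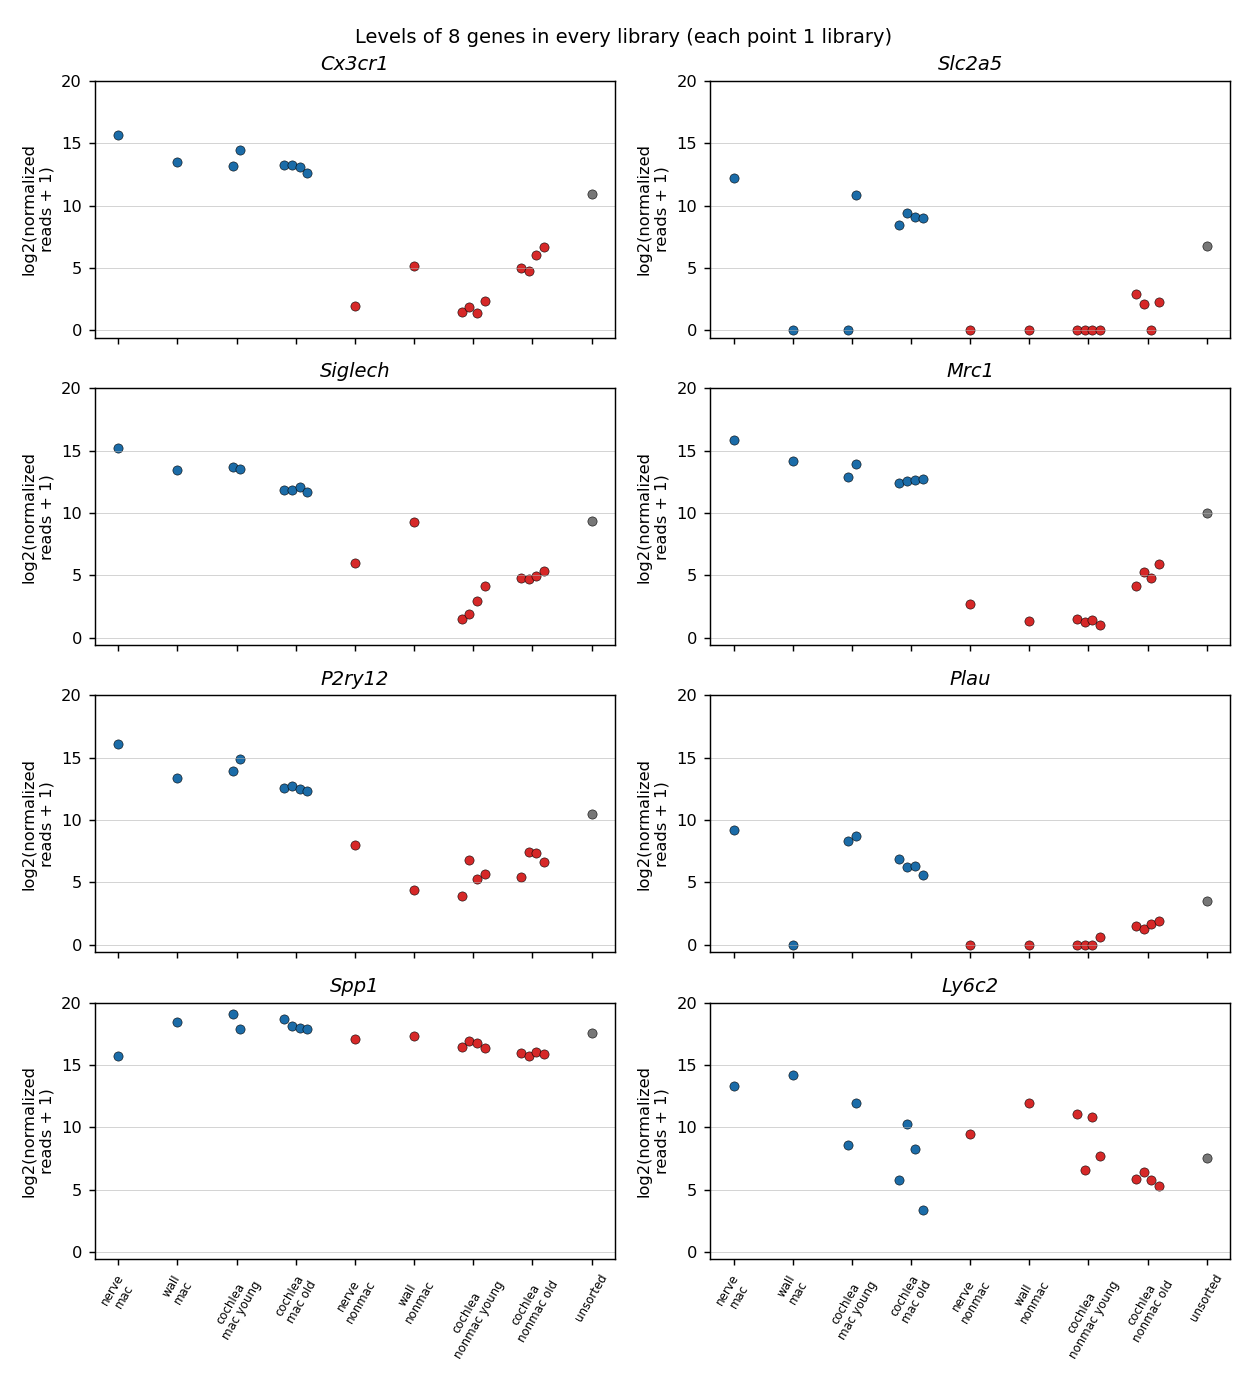
Levels of 8 genes as log2(normalized reads + 1), with 1 point per library and the groups along the x axis (mac, macrophages, blue; nonmac, nonmacrophages, red; unsorted, grey). Slc2a5 and Plau are at 0 in the lateral wall macrophages, Slc2a5 also in 1 of 2 young cochlea macrophage libraries, and Spp1 is lower in the nerve than in every other macrophage library.

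Genes of the microglia type stood higher in the nerve library: of 14 kept, 14 had a ratio above 0, 4 were past 4-fold and none was past 4-fold the other way. Their median log2 ratio was 1.73, or 0.63 relative to the core, with 12 of 14 above the core median. Of the 14 genes, 12 differed more between the sites than between replicates 9 and 15 and than between any pair of old replicates, beside 13 of 20 core genes. The list took 2.57% of normalized reads in the nerve library and 1.03% in the lateral wall library.

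P2ry12, the purinergic receptor that steers microglial processes, was at 68785 in the nerve library, 10548 in the lateral wall library, and 15692 and 30836 in replicates 9 and 15. The nerve library was 6.52-fold higher (6.36 to 6.69), and the site libraries lay on either side of both replicates. P2ry13, a related receptor, showed the same order, at 43287, 10246, 10130 and 23949, except that the lateral wall value lay between the replicates. Tmem119, a membrane protein of microglia, was at 38820 and 10249, a ratio of 3.79-fold (3.69 to 3.89), with 15202 and 27805 in the replicates.

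Sall1, a transcription factor of microglial identity, was at 2645 in the nerve library and 110 in the lateral wall library, a ratio of 24.0-fold (18.9 to 30.8). Its values in replicates 9 and 15 were 398 and 3.39, and limma did not call it between sorts (log2 difference -1.16 ± 0.79, SE, adjusted p 0.26). The nerve nonmacrophages also held more Sall1 than those of the lateral wall, at 282 against 48.9, and the part of other cells in the ratio was not tested.

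The perivascular-type resident list showed 8 of 18 genes past 4-fold in the nerve library, 0 of 18 in the lateral wall library, a median of 1.77 and 0.67 relative to the core. These genes varied more between young replicates: 7 of 18 differed more between the sites than in both sets of replicate pairs. Lyve1, a hyaluronan receptor, was at 15668 in the nerve library, 2291 in the lateral wall library, and 332 and 10406 in replicates 9 and 15. Folr2, a folate receptor of resident macrophages, was at 5505 and 829, with 2401 and 6223 in the replicates. Timd4, a phosphatidylserine receptor for dying cells, was at 2486 and 283, with 951 and 1950.

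The ratios were 6.84-fold (6.47 to 7.23) for Lyve1, 6.64-fold (6.06 to 7.29) for Folr2 and 8.78-fold (7.53 to 10.3) for Timd4. Of these, Timd4 and Lyve1 had nerve values above both replicates and Folr2 did not. Cd163, the hemoglobin scavenger receptor, was at 9080 and 1700 in the site libraries, with 1.75 and 1131 in the replicates. Ccl24, an eosinophil-attracting chemokine, was at 1816 and 150, with 1917 and 1159.

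Other resident genes were near equal or lay toward the lateral wall. F13a1, a clotting factor chain, was at 59970 in the nerve library and 50686 in the lateral wall library, and Ms4a7, a membrane protein of macrophages outside the brain parenchyma, at 27051 and 27520. In replicates 9 and 15 F13a1 was at 4853 and 25469 and Ms4a7 at 44725 and 41615. The lectins Cd209f and Cd209g were higher in the lateral wall library, at 1439 against 2506 and 368 against 937. Their ratios were 1.74-fold (1.60 to 1.89) and 2.54-fold (2.18 to 2.98) toward the lateral wall, and as related Cd209 genes they may share reads. The replicates differed more, at 1334 and 5116 for Cd209f and at 0 and 768 for Cd209g.

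Chemokine ligands were the pathway list with the highest median, 2.02 (0.91 relative to the core), with 11 of 21 past 4-fold in the nerve library and 0 in the lateral wall library. Ccl24, Ccl8 and Pf4 are shared with the perivascular-type list. Of the 21, 12 differed more between sites than in both sets of replicate pairs. Ccl7 and Ccl12, which draw monocytes, were at 27047 against 4535 and 43148 against 7422. In replicates 9 and 15 they were at 14481 and 14409 (Ccl7) and at 66116 and 15888 (Ccl12), so replicate 9 held more Ccl12 than the nerve library.

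Ccl3 and Ccl4, related inflammatory chemokines whose genes may share reads, were at 70624 against 17436 and 58869 against 12136. In the replicates they were at 37916 and 16671 (Ccl3) and 51303 and 22937 (Ccl4). Cxcl1 and Cxcl2, which draw neutrophils, were at 2144 against 103 and 10857 against 1714, ratios of 20.9-fold (16.3 to 27.1) and 6.34-fold (5.95 to 6.76). The replicates lay between the sites for both, at 653 and 1083 (Cxcl1) and at 6663 and 2703 (Cxcl2). Among inflammatory cytokines 4 of 13 were past 4-fold in the nerve library, 0 in the lateral wall library, with a median of 1.21, which is 0.10 relative to the core. Their median size between replicates 9 and 15 was 1.24, and 2 of 13 were past both sets of replicate pairs. Il1a, the alarm cytokine interleukin 1 alpha, was at 9788 in the nerve library, 887 in the lateral wall library, and 3223 and 2714 in the replicates, a ratio of 11.0-fold (10.1 to 12.0) with the replicates in between.

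Immediate early genes, which rise within minutes of a stimulus such as tissue dissociation, stood higher in the nerve library too. Of 17, 16 were above 0 and 5 past 4-fold in the nerve library, with a median of 1.54 (0.44 relative to the core), and 13 were past both sets of replicate pairs. Egr1 was at 229149 against 44117 and Zfp36, which destabilizes cytokine messages, at 196766 against 40339. In the replicates Egr1 was at 16256 and 82850 and Zfp36 at 48237 and 120266. In the nonmacrophage libraries the list's median was 0.85 toward the nerve. The part of handling in the chemokine and cytokine values was not tested.

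Genes of MHC class II, which present peptides to helper T cells, had a median of 1.48 (0.37 relative to the core, and 0.97 as it stands under quantile normalization), with 3 of 11 past 4-fold in the nerve library and 0 in the lateral wall library. The chains of the complex stayed within 4-fold: Cd74 was at 268245 and 89181 (3.01-fold, 2.98 to 3.04) and H2-Ab1 at 102077 and 38109 (2.68-fold, 2.64 to 2.72). The replicates held 127818 and 183276 of Cd74 and 73420 and 62083 of H2-Ab1, between the sites for both. Ciita, the master regulator of these genes, was at 993 against 13.8, with 0 and 210 in the replicates. MHC class I genes had a median of 0.35 (-0.76 relative to the core), with 0 of 16 called either way.

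Complement genes had a median of 1.19 (0.08 relative to the core, and 0.67 as it stands under quantile normalization), with 1 of 16 called each way, and they include the C1q chains and Itgam of the core list. C4b was at 8693 in the nerve library and 1006 in the lateral wall library, and Cd59a, an inhibitor of the membrane attack complex, at 398 and 4658. The replicates were at 772 and 3863 for C4b and at 9658 and 3982 for Cd59a. Toll-like receptors (median 1.13, 0.02 relative to the core, 0 of 15 called) and lysosomal genes (median 0.73, -0.37 relative to the core, 0 of 30 called) stayed within 4-fold throughout. Fc receptor and phagocytosis genes had 2 of 20 called each way and a median of 0.93 (-0.18 relative to the core). Over all genes 12.4% were called toward the nerve and 11.4% toward the lateral wall, so the called shares of this list and of complement were near or under those of all genes. Among the Fc receptor and phagocytosis genes called was Mfge8, a bridging protein between phagocyte and dying cell. It was at 2485 in the nerve and 11087 in the lateral wall library, with 4093 and 13730 in the replicates.

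A smaller group of myeloid genes stood higher in the lateral wall library. Of 11 monocyte genes 10 had a ratio below 0 and 3 were past 4-fold in the lateral wall library, with a median of -1.08 (-2.19 relative to the core). Plac8 was at 2149 in the nerve library, 9490 in the lateral wall library, and 2529 and 3697 in replicates 9 and 15, a ratio of 4.42-fold (4.16 to 4.69) toward the lateral wall. Ly6c2, a surface antigen of inflammatory monocytes, was at 9939 and 18476, with 390 and 3897 in the replicates, and Ccr2, the receptor that brings monocytes from marrow, at 11247 and 20534, with 54.4 and 2030.

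Both site libraries thus held more Ly6c2 and Ccr2 than both young whole-cochlea libraries. The spread of the list between those replicates was larger than between the sites, with a median size of 2.54 against 1.20, and 1 of 11 genes was past both sets of replicate pairs. The 1 member past 4-fold in the nerve library, Vcan, was at 167 against 0. Vcan was also at 357 in the nerve nonmacrophages and 0 in those of the lateral wall, and at 0 in both young replicates.

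Dendritic cell genes were split, with a median of -0.78 (-1.89 relative to the core), 2 of 9 past 4-fold in the nerve library and 3 in the lateral wall library. Of these 9 genes, 2 were past both sets of replicate pairs. Itgax was at 1155 against 122, and Flt3, the growth factor receptor of the dendritic lineage, at 340 against 1970. Replicates 9 and 15 held 0 and 44.0 of Itgax and 0 and 157 of Flt3. Cell cycle genes lay toward the lateral wall, with a median of -1.21 (-2.32 relative to the core), 14 of 15 below 0 and 3 called: Bub1 at 155 against 2230, Top2a at 1421 against 5918 and Birc5 at 502 against 2104. In replicates 9 and 15 Bub1 was at 0 in both, Top2a at 0 and 695 and Birc5 at 332 and 520. The cell cycle list showed a median of -1.92 between the nonmacrophages too, and 2 of 15 genes were past both sets of replicate pairs.

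Genes of lipid handling and of disease-associated microglia had a median of 0.37 (-0.74 relative to the core). Of 19, 1 was called in the nerve and 2 in the lateral wall library, beside 12.4% and 11.4% of all genes. Spp1, the secreted phosphoprotein osteopontin, was at 53303 in the nerve library and 360349 in the lateral wall library, with 567193 and 237335 in replicates 9 and 15. The ratio was 6.76-fold (6.68 to 6.84) toward the lateral wall, and the nerve value lay under all other macrophage libraries, whose old members ran from 244658 to 416730. The nonmacrophages held 138949 and 165404, so the site difference there was small (log2 ratio -0.25).

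Gpnmb, a glycoprotein of lysosomes and melanosomes, was at 776 against 27890, a ratio of 35.9-fold (32.8 to 39.4) toward the lateral wall, with 7047 and 14880 in the replicates. It was at 1326 and 198658 in the nonmacrophages of nerve and lateral wall, and limma called it lower in macrophages (log2 difference -1.46 ± 0.33, SE, adjusted p 0.0039). Growth factors had a median of 0.18 (-0.93 relative to the core). Of 17, 3 were called in the nerve and 1 in the lateral wall library, beside 12.4% and 11.4% of all genes. Bmp2 was at 7869 against 836 and Igf1 at 3985 against 12135. For Bmp2 the replicates lay between, at 2675 and 1807, and for Igf1 they were at 11585 and 7143.

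**Figure D3:**
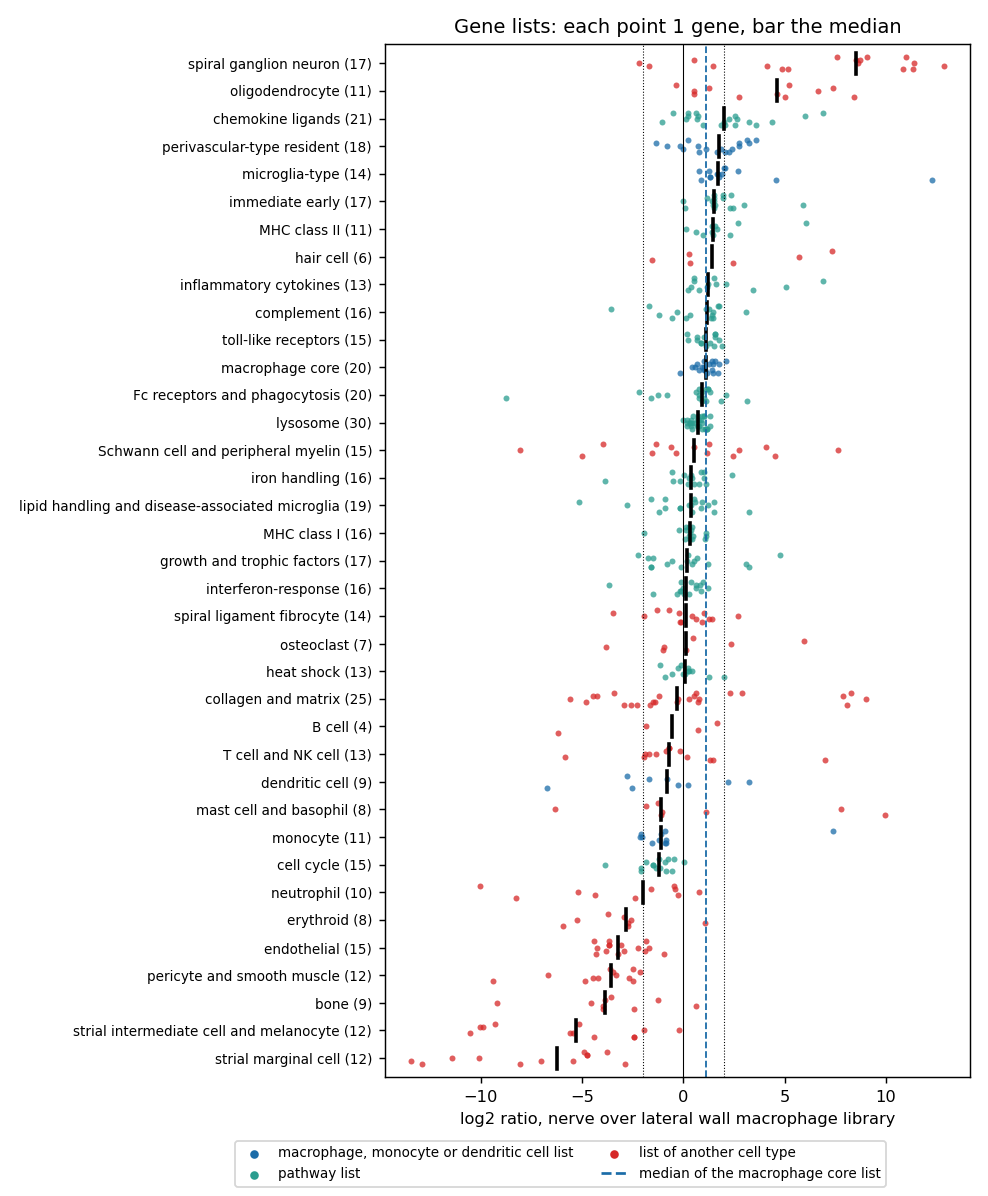
Log2 ratio of nerve over lateral wall macrophage library (x axis) for each gene kept, in rows by gene list with the number of genes in brackets. Black bars are medians, dotted lines mark 4-fold and the dashed line the core median of 1.11. Neuron and oligodendrocyte genes lie at the right, strial, pericyte, bone and endothelial genes at the left, and macrophage lists between.

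Many of the largest ratios belonged to genes of other cells, although Slc2a5 (12.26) was also among the 6 highest toward the nerve. Crtac1 (11.72), a gene described below, was among those 6 too, and which cells gave its reads was not tested. Of 17 spiral ganglion neuron genes 13 were past 4-fold in the nerve library and 1, Gata3, in the lateral wall library, with a median of 8.51. Snap25, a protein of synaptic vesicle release, was at 18339 in the nerve library and at 6.13 in the lateral wall library. The neurofilament genes Nefl and Nefm and the tubulin gene Tubb3 were at 7452, 2648 and 2068 in the nerve library and at 0 in the lateral wall library. The neuron list summed to 39233 and 1222 in the macrophages, to 39397 and 5539 in the nonmacrophages, and to 360298 and 173457 in replicates 9 and 15.

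Oligodendrocyte genes had a median of 4.65, with 7 of 11 called in the nerve library. That median was 2.73 with a pseudocount of 10 and 2.07 with no filter on low values, over the members with a read in either library. Mbp, a main protein of myelin, was at 20180 and 3031, small beside 2290000 in the nerve nonmacrophages. Schwann cell genes went both ways (5 of 15 in the nerve, 3 in the lateral wall library), among the latter Cdh19, a cadherin, at 1.65 against 700.

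The lateral wall library held RNA of the stria. All 12 marginal cell genes kept were past 4-fold there, with a median of -6.23. Kcne1, a subunit of the channel that secretes potassium, was at 1.65 in the nerve library, which is 1 read, and 19788 in the lateral wall library, with 14464 and 5790 in the replicates and a ratio of 11978-fold toward the lateral wall (2149 to 473128). Lrp2, the endocytic receptor megalin, was at 4.96 (3 reads) and 64907, with 10044 and 11207, a ratio of 13096-fold (4481 to 63506). The lateral wall macrophage library thus held more Kcne1 and Lrp2 than the lateral wall nonmacrophages, at 8299 and 12945.

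The marginal cell list summed to 153566 in the lateral wall macrophages, 0.423% of their reads, to 100917 in its nonmacrophages and to 3188 in the nerve macrophages. For intermediate cells and melanocytes the sums went the other way, with 148934 in the lateral wall macrophages and 1135244 in its nonmacrophages. There 10 of 12 genes were called toward the lateral wall and 0 toward the nerve, with a median of -5.30. Dct, whose promoter is printed above, was at 90.9 in the nerve and 87357 in the lateral wall library, a ratio of 961-fold (738 to 1276), and Tyr at 9.91 and 6740 (680-fold, 312 to 1854).

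Endothelial genes (11 of 15 called toward the lateral wall, median -3.21) and pericyte and smooth muscle genes (12 of 12, median -3.56) lay on the same side. Tek, an angiopoietin receptor of vessels, was at 474 against 6045 and Rgs5, a pericyte gene, at 917 against 26348. Of bone genes 7 of 9, of erythroid genes 7 of 8 and of neutrophil genes 5 of 10 were called toward the lateral wall and 0 toward the nerve. The median size of the neutrophil ratios was 1.97 between the sites and 2.17 between replicates 9 and 15, where the list summed to 56.2 and 4578. Of these 10 genes, 3 were past both sets of replicate pairs. For bone and erythroid genes the sites differed more, at 3.84 against 0.83 and 2.82 against 0.24. Camp, a neutrophil granule protein, had no reads in the nerve library and was at 1052 normalized reads in the lateral wall library. The endothelial and pericyte lists had medians of -0.58 and -0.95 between the nonmacrophages, so the ratio was smaller there.

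Spiral ligament fibrocytes were not split in this way. Of 14 fibrocyte genes 1 was called each way, with a median of 0.16 (-0.11 with a common total), and Coch, the main secreted protein of these cells, was at 33261 in the nerve and 12473 in the lateral wall library. Collagen and matrix genes were called both ways, 6 of 25 toward the nerve and 8 toward the lateral wall, the vessel collagens Col4a1 and Col4a2 among the latter at 291 against 5540 and 307 against 3239. The share of RNA of other cells thus differed between the libraries, and its part in the ratio of a gene that other cells also express was not tested.

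**Figure D4:**
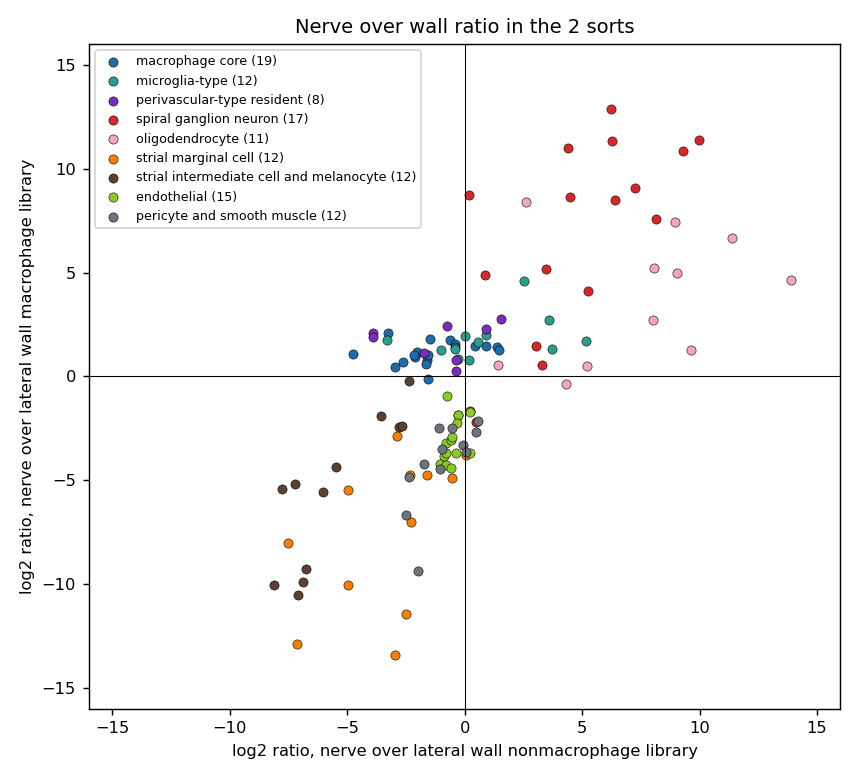
Log2 ratio of nerve over lateral wall in the nonmacrophage libraries (x axis) and in the macrophage libraries (y axis), with 1 point per gene kept in both pairs, for 9 lists. Neuron genes lie mostly at the upper right and strial genes at the lower left, mostly in the same direction in both sorts, while core macrophage genes lie above 0 on the y axis, 1 excepted, and mostly below 0 on the x axis.

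The nonmacrophage pair shows how far site differences ran the same way in both sorts. In it 1521 of 15267 genes (9.96%) were called higher in the nerve and 1017 (6.66%) higher in the lateral wall. Of the 1750 genes called higher in the nerve macrophages, 1475 were kept in the nonmacrophage pair, and 522 of these (35.4%) were called the same way there and 65 (4.41%) the opposite way. Of the 1606 called higher in the lateral wall macrophages, 1478 were kept, 270 (18.3%) called the same way and 84 (5.68%) the opposite way.

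To separate macrophage genes from those of other cells by libraries outside the ratio, 14 sorted whole-cochlea libraries were used. limma called 2512 of 18441 genes (13.6%) higher and 4732 (25.7%) lower in macrophages at an adjusted p under 0.05. Of 2321 genes higher in macrophages and kept here, 363 (15.6%) were past 4-fold in the nerve library and 47 (2.02%) in the lateral wall library, with a median of 0.43. Of 3698 genes lower in macrophages, 535 (14.5%) were past 4-fold in the nerve and 786 (21.3%) in the lateral wall library, with a median of -0.21.

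That class still held neuron and strial genes. Snap25 was called higher in macrophages (log2 difference 4.49 ± 0.37, SE, limma adjusted p 9.2e-07), and so were Kcne1 (1.81 ± 0.41, adjusted p 0.0034) and Lrp2 (1.21 ± 0.41, adjusted p 0.033). A stricter set was therefore taken after the values were seen, of genes with a sort difference of at least 5 on the log2 scale. Whether this set was free of genes of other cells was not tested. The set held 255 genes, of which 248 were kept and 66 belong to the lists above.

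In this set 56 of 248 genes (22.6%) were past 4-fold in the nerve library and 1 (0.403%) in the lateral wall library, and 216 lay above 0 and 32 below. The median was 1.03, close to the core median, with 115 genes above that core median. Relative to the core, 35 genes were past 4-fold toward the nerve and 7 toward the lateral wall.

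**Figure D5:**
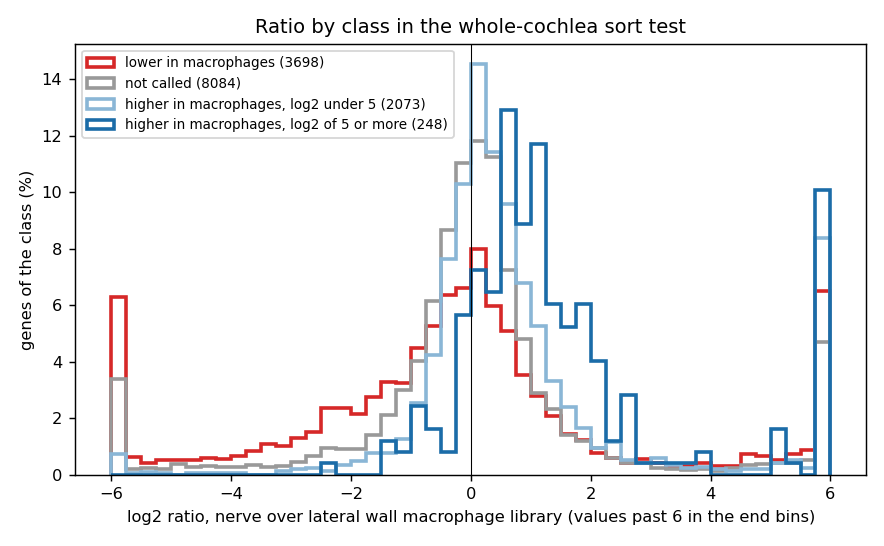
Share of the genes of each class (y axis, percent) by log2 ratio of nerve over lateral wall macrophage library (x axis, values past 6 in the end bins), for classes of the whole-cochlea sort test. The set with a sort difference of 5 or more (dark blue, 248 genes) lies to the right of the others, with a median of 1.03.

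In the set, 5 genes had no reads in the lateral wall library and at least 500 normalized reads in the nerve library. Beside Slc2a5 these were Crtac1, a secreted matrix protein, Adora3, an adenosine receptor, Fam19a2, a secreted chemokine-like protein, and Plau, the urokinase protease. Plau was at 583 in the nerve library and at 312 and 420 in replicates 9 and 15, Adora3 at 937, 377 and 702, and both had no reads in the nonmacrophages of either site. For these 2 genes the lateral wall library was thus the 1 young macrophage library with no reads. Crtac1 and Fam19a2 were at 3382 and 778 in the nerve macrophages and also at 547 and 129 in the nerve nonmacrophages, with 0 in the lateral wall nonmacrophages. The replicates held 8180 and 11888 of Crtac1 and 1415 and 3934 of Fam19a2, more than the nerve library. In the unsorted young cochlea Crtac1 was at 7384 and Fam19a2 at 3910, against 105.5 for Slc2a5, 30.6 for Adora3 and 10.7 for Plau. The part of other cells in the ratios of Crtac1 and Fam19a2 was not tested.

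Gpr84, a receptor for medium-chain fatty acids, was at 7380 in the nerve and 484 in the lateral wall library, with 5252 and 4398 in the replicates. Capn3, a calcium-dependent protease, was at 3711 against 588, and Hcar2, the niacin receptor, at 3202 against 532. Their values in replicates 9 and 15 were 1618 and 265 (Capn3) and 35.1 and 627 (Hcar2), so the replicates spread about as far as the sites or farther. On the other side Spn, the sialoglycoprotein CD43 of leukocytes and nonclassical monocytes, was at 256 in the nerve and 1276 in the lateral wall library and was the 1 gene of the set past 4-fold there (log2 ratio -2.31). Spn was at 1539 and 191 in the replicates, which thus differed more than the sites. Apoc2, an activator of lipoprotein lipase, was at 601 and 1590, Wfdc17 at 5835 and 11291, and Mmp12, the macrophage elastase, at 1052 and 1931. The replicates were at 1318 and 1384 for Apoc2, 23988 and 8508 for Wfdc17, and 0 and 568 for Mmp12.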

How the data were processed

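Cells of 19 mouse samples were measured by RNA sequencing. The labels' protocols state SMARTer Ultra and Nextera XT libraries sequenced on an Illumina HiSeq, exclusion of RNA of low quality, and a second sequencing of some libraries. The submitters' processing notes name mm10, TopHat2, Partek and DESeq2, without versions, and whether counting used strand is not given in the sources used here. The authors deposited 1 signal value per gene and library, which per the file headers and the values is the number of reads of a gene over a scaling factor of its library (normalized reads). Their deposited p-values and fold changes were not used.

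The step between low values of a library gave the worth of 1 read and so its whole reads: under 10000 reads, 100.0% of values were whole within 0.1 read in every library. No replicate pair agreed within sampling noise, so none was counted as 1 sample. Ratios are log2((nerve + 1)/(lateral wall + 1)) of genes with at least 20 in the higher library, called at 4-fold. This understates the ratio of low genes. Exact 95% intervals come from the recovered reads. The design had planned for counts or normalized values, and the table held the latter. limma 3.58.1 (trend, robust) was fitted to log2(value + 1) of 14 whole-cochlea libraries with 4 group means, for genes with at least 1 in at least 2 libraries, at a Benjamini-Hochberg adjusted p of 0.05. It was also run on simulated data, drawn with a single spread taken from the old nonmacrophage libraries. Young libraries differed more from one another, so that run does not show how the test behaves at their spread. The labels name 1 mouse per isolate, and the limma p-values measure the spread between these samples. edgeR 4.0.16 (R 4.3.3), a quasi-likelihood test, called 2629 genes higher and 4295 lower on the recovered reads.

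The genes named are the 4 given markers, the 12 with the highest and the 12 with the lowest ratio among genes limma called higher in macrophages with at least 500 in the higher library, 6 each way over all genes, and for each list the 5 with the highest level and the 3 with the largest ratio, from which the text takes examples after their values were seen. The set with a sort difference of at least 5 and its genes were also chosen after the values were seen. The members and the 38 lists were chosen with earlier results of these data known, and some genes are in several lists. The motifs were searched on both strands. Genes of related families (Ccl3 and Ccl4, the Cd209, Bglap and hemoglobin genes) may share reads. A gene that met these rules is not reported here.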

Additional observations from a re-analysis of the deposited data

Results flagged for a closer look

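Among the named genes and list members, 8 were past 4-fold between nerve and lateral wall in 1 direction in macrophages and in the opposite direction in nonmacrophages. Each value is a ratio of single libraries on the log2 scale, and the difference between the sorts was not tested. Between the nonmacrophages the macrophage core list as a whole had a median log2 ratio of -1.56, with sums of 14348 in the nerve and 40012 in the lateral wall. The part of that shift in the values of the 8 genes was not tested. In macrophages 7 of the 8 were higher in the nerve. Cx3cr1, whose locus carries the GFP used for the sort, had a log2 ratio of 2.09 in macrophages and -3.25 in nonmacrophages, where it was at 2.80 normalized reads in the nerve and 35.2 in the lateral wall. Hcar2, the niacin receptor, had 2.59 and -5.96. Cxcl2 had 2.66 and -3.42, and the platelet factor Pf4, a chemokine, 2.08 and -3.92. In nonmacrophages Hcar2 was at 0 in the nerve and 61.2 in the lateral wall, and Cxcl2 at 2.80 and 39.8. The limit of 3 reads is 4.2 normalized reads in the nerve nonmacrophages, so the nerve values of Cx3cr1, Hcar2 and Cxcl2 there lay under it. Il1rn, which blocks the interleukin 1 receptor, had 2.13 and -3.78, and the protease Mmp9 2.35 and -2.76. C4b, a complement component, had 3.11 and -2.02. Ace, the angiotensin-converting enzyme, went the other way, with -2.01 and 2.65. The 7 are of 69 such genes (10.1%) called higher in the nerve macrophages and kept in nonmacrophages, beside 65 of 1475 (4.41%) over all genes. Ace is the 1 of 109 (0.917%) called higher in the lateral wall macrophages, beside 84 of 1478 (5.68%) over all genes.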

How the results depend on the processing

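The ratios rest on 1 library per site and have no replicate check. Genes near the limit of 3 reads have wide intervals. No paired analysis was possible because each replicate number is used for 1 library only. Alternatives that changed 1 choice at a time were pseudocounts, minimum, scaling, thinning and the fold. Core and TMM scaling, and all alternatives of the set with a sort difference of at least 5, were chosen after seeing the data. The causes of the moves below were not tested.

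The count of genes higher in the nerve was 1750, and became 1076 with a minimum of 100 and 2988 at 2-fold. That of genes higher in the lateral wall was 1606, and became 1063 at 8-fold, 2705 at 2-fold and 2913 with the core median subtracted, beside 1363 toward the nerve. List members higher in the nerve numbered 80, with 52 at 8-fold, 171 at 2-fold and 51 with the core median subtracted. Those higher in the lateral wall numbered 97, with 147 at 2-fold and 153 with the core median subtracted. Between nonmacrophages 2538 genes were called either way, with 1544 at a minimum of 100, 1687 at 8-fold, 5080 at 2-fold and 5343 with the core median subtracted. In the sort test, 2512 genes higher and 4732 lower became 681 and 1943 with library quality weights and 341 and 1085 with only young libraries.

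In the set with a sort difference of at least 5, the 56 genes higher in the nerve became 35 at 8-fold, 128 at 2-fold, 35 with the core median subtracted, 226 at a difference of 3 and 19 at 7. With other settings of the sort test they became 87 (quantile normalization), 28 and 86 (pseudocounts 10 and 0.1), 31 (quality weights) and 29 (only young libraries). The 1 gene higher in the lateral wall became 0 at 8-fold, 6 at 2-fold, 7 with the core median subtracted, 18 at a difference of 3 and 0 at 7. With other settings of the sort test it became 3 (quantile normalization), 0 and 4 (pseudocounts 10 and 0.1), 2 (only young libraries) and 8 (edgeR), and leaving out 1 library gave 0 to 6, with 6 without young macrophage replicate 15, 3 without replicate 9, 2 each without old macrophage replicate 17 and young nonmacrophage replicate 6, and 0 without young nonmacrophage replicate 5.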

Other observations

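The counts in this paragraph stand beside 12.4% of all genes called toward the nerve and 11.4% toward the lateral wall. Lists of cells that are rare in a cochlea held few reads. Mast cell and basophil genes had 2 of 8 called toward the nerve and 1 toward the lateral wall. Their list summed to 0 in young whole-cochlea replicate 9 and to 7027 in replicate 15. The median size of their log2 ratios was 8.3 between those replicates and 1.53 between the sites. Mcpt4, a protease of connective tissue mast cells, was at 1008 in the nerve macrophage library and had no reads in that of the lateral wall, while Mcpt8, a protease of basophils, was at 902 and 2100. T cell and NK cell genes had 1 of 13 called each way, with a summed level of 2752 in the nerve and 4322 in the lateral wall library. Of iron handling genes 1 of 16 was called each way: Cd163 toward the nerve and Steap4, a metalloreductase, at 268 against 3964. Interferon-response genes had a median log2 ratio of 0.16 (-0.10 with a common total), with 1 of 16 called, Ifi44 at 132 against 1709. Heat shock genes had a median of 0.08 (-0.19 with a common total) and 0 of 13 called.

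Xist, the RNA that coats the inactive X chromosome, was at 692 in the nerve macrophage library and 15.3 in the lateral wall library, and at 2930 and 1.13 in the young whole-cochlea replicates 9 and 15. Ddx3y, a gene of the Y chromosome, was at 2310, 865, 0 and 1428 in the same order. Both site libraries and replicate 15 thus had reads of both genes, with Xist in replicate 15 at 1 read, while replicate 9 had Xist and no Ddx3y. The labels name 1 mouse per sample, and how the nerve library came to hold reads of both genes was not tested. The part of sex in the ratios of nerve over lateral wall was not tested either.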
